A study of Caenorhabditis elegans with 2 samples.

Results

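The 417 regions described here were peaks of the zinc finger protein ZTF-11 on the X chromosome of *Caenorhabditis elegans* that lay away from promoters of protein-coding genes. They were selected by the signal value of the pooled peak list: the 3000 strongest of its 30000 relaxed peaks were taken, and those on X were kept when the summit fell outside every promoter window, which runs from 1000 bp upstream to 200 bp downstream of the 5′ end of each protein-coding transcript. X carried 596 of the 3000, of which 417 passed and 179 lay at promoters. The remaining peaks of the 3000 comprised 1592 away from promoters and 812 at promoters on the autosomes. Chromatin immunoprecipitation followed by sequencing was done on whole L4 larvae, males and females pooled, in 1 group with 2 biological replicates. Both came from strain OP236, which carries the *unc-119*(ed3) mutation on chromosome III and the transgene wgIs236, an inserted copy of *ztf-11* fused to eGFP. All samples thus carried the mutation and the transgene, and a second condition was not analysed here. Every cell type of the animal can contribute, and which cells do cannot be told apart here. Signal values are the authors', on a scale that is not stated, so they are compared only inside 1 list. Since signal and place chose the regions, neither is tested, and pooled signal contains both replicates, so a replicate's own peaks are no independent support either. Depth is unknown because the lists hold no read counts.

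ZTF-11 is a C2HC zinc finger protein related to vertebrate Myt1, a family known for repressing non-neuronal genes in developing neurons and for binding a core of the form AAGTT. The X chromosome of the worm is also the target of dosage compensation, in which a condensin-like complex binds both X chromosomes of hermaphrodites and lowers their transcription. That complex is loaded at recruitment elements, which carry a short G- and C-rich motif enriched on X. The 8 bases GCGCAGGG are part of that motif and are called the core below, and GCGAAGGG, which differs from it in 1 base, is called the variant core.

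Many of the strongest X peaks away from promoters carried this core close to the summit, and the weaker ones rarely did. Of the 16 that the authors' list thresholded on the irreproducible discovery rate (IDR) holds, 9 had the core within 100 bp of the summit, on either strand, or 56.2% (exact 95% interval 29.9 to 80.2). Of the other 401 it was present at 3, or 0.748% (0.155 to 2.17). All windows of 201 bp on X with a centre away from promoters had it at 56 of 68913, or 0.0813%. Among the 16 strongest X peaks away from promoters of replicate 1 alone 62.5% had it, where a pair of the 16 peaks overlap 1 region in Y41G9A.17, and of replicate 2 alone 31.2%. Intervals are Clopper-Pearson intervals, cover counting error only and treat peaks as independent. The division into thresholded and other peaks was made after the data were seen. Over all 417, as planned before, 12 held the core, or 2.88%. The sequences below run from 100 bp before to 100 bp after the summit on the plus strand of ce11 and are credited to the RefSeq genome WBcel235. Capitals mark the core, the variant core or their reverse complements. The sequences show 7 of the 9 thresholded peaks with the core, namely those with 2 or more cores of either form. They also show 1 with the variant core alone and 1 with neither. They lie at chrX:11094104-11094304 between genes nearest to W02H3.3, at chrX:6296430-6296630 in an intron of *mom-1*, at chrX:806601-806801 near *gtr-1*, at chrX:5429459-5429659 in a coding exon of *pks-1*, and at chrX:4209141-4209341 near F20B6.9. The others lie at chrX:8036282-8036482 upstream of *xol-1*, at chrX:2997030-2997230 in an intron of Y41G9A.17, at chrX:13700756-13700956 upstream of K02D3.1 and at chrX:11031184-11031384 in an intron of *ldb-1*.
W02H3.3: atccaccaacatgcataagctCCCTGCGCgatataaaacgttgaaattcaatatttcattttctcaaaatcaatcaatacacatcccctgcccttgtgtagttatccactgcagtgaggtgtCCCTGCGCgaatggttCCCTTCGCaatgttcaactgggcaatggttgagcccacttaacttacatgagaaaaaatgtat
mom-1: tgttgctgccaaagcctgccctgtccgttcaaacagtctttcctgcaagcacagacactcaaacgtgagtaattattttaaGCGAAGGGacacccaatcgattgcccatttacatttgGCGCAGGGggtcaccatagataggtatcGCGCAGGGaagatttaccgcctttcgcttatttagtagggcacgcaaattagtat
gtr-1: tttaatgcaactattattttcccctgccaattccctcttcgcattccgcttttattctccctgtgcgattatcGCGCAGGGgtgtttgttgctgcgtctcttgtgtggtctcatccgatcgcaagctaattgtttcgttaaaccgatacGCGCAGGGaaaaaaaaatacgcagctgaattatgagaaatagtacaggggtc
pks-1: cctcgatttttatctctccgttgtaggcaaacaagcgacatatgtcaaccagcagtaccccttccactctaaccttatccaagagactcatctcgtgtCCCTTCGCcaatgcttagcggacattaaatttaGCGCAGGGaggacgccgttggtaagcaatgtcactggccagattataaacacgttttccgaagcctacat
F20B6.9: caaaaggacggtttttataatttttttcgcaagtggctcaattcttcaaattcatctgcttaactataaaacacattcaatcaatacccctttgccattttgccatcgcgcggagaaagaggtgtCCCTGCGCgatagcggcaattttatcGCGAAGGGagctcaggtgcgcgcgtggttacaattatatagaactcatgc
xol-1: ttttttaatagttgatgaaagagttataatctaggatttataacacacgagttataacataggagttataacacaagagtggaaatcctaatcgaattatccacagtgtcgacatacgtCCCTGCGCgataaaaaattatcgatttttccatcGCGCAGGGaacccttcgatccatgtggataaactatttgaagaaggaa
Y41G9A.17: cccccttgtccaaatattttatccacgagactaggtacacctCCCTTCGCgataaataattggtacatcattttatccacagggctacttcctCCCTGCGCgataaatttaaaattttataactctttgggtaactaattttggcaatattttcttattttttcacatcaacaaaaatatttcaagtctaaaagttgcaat
K02D3.1: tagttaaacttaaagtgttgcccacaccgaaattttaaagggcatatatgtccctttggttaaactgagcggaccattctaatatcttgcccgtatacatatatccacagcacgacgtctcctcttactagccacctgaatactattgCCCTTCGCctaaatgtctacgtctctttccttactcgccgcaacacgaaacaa
ldb-1: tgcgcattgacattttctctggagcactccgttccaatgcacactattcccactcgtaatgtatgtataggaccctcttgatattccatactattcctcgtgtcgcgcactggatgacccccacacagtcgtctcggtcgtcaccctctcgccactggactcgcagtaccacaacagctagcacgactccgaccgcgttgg

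Cores of either form were repeated within a peak at 7 of the 16 thresholded peaks, and all 7 are among the sequences above. Counting both forms as cores, 21 lay within 100 bp of a summit at the 16 thresholded peaks, 13 of the core and 8 of the variant core. They were spread over 12 of the 16 peaks: 5 had both forms, 4 the core alone and 3 the variant core alone. There were 2 or more in 7 peaks, all on 1 strand in 4 of these and on both strands in 3. Neighbouring cores in a peak were 16 to 101 bp apart, centre to centre, with a median of 34 bp over 9 spacings. The median distance of a core centre from the summit was 35 bp, and 18 of the 21 lay within 60 bp. Of the 21 cores, 17 were followed by A, 11 were preceded by T and C, and 10 had both. At the other members, 5 of 8 words of the form GCGNAGGG, where N is any base, were also followed by A. These shares over all such words on X were not computed. The variant core was chosen for counting after these sequences had been seen. Its counts at these peaks are no support for it, and the counts, strands and spacings of both forms together carry the same limit. Counting the core alone, only W02H3.3, *mom-1*, *gtr-1* and *xol-1* of the thresholded peaks held it more than once. Of all 3000 peaks 15 held the variant core, or 0.5%, the thresholded peaks included. X away from promoters holds 117 variant cores, of which 8 lay within 100 bp of a summit of the 47 strongest.

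**Figure D1:**
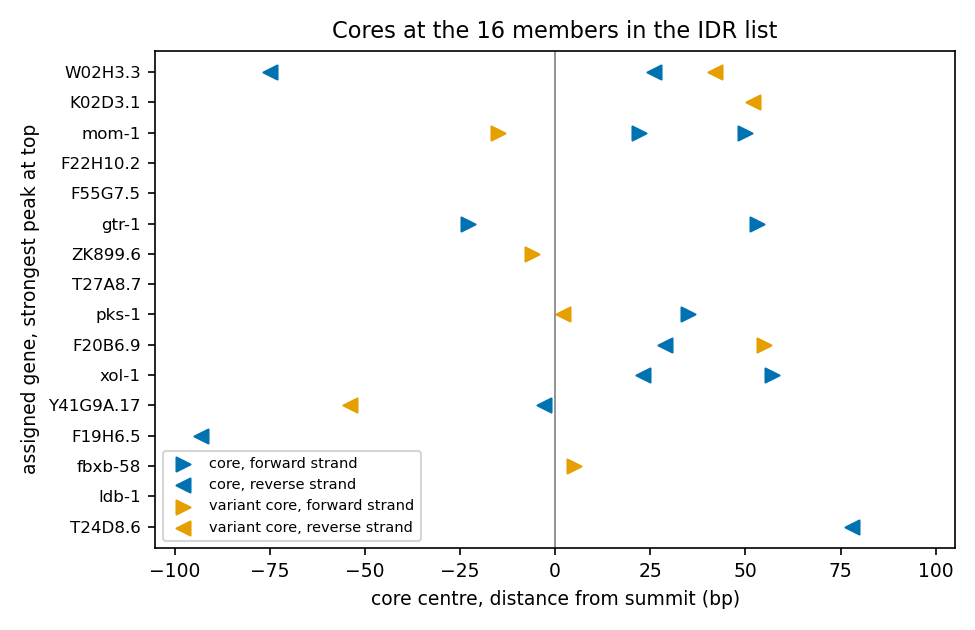
Distance in bp of each core centre from the summit (x axis) at the 16 thresholded peaks, strongest at the top (y axis, assigned gene). Triangles point along the strand of the core; blue marks the core and orange the variant core. In all, 21 cores of either form lie at 12 of the 16 peaks, 18 of them within 60 bp of the summit. The variant core was chosen after the sequences of these peaks had been seen.

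The strongest peak, nearest to W02H3.3 with a pooled signal of 77.1, held 2 cores and 1 variant core, all on the minus strand. Its overlapping peak ranked 3 in replicate 1 (signal 51.2) and 4 in replicate 2 (signal 26.97). It was therefore among the strongest peaks of both. The peak in *mom-1*, the worm Porcupine gene required to secrete Wnt proteins, also held 2 cores and 1 variant core, all on the plus strand. It had a pooled signal of 68.7 and ranked 7 in replicate 1 (45.2) and 9 in replicate 2 (25.1). Thus the pair of peaks with 3 cores each stood among the 3 strongest of the pooled list.

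Other peaks held cores in pairs. Signal did not simply follow the number of cores. K02D3.1 (70.2) held 1 variant core, and F22H10.2 (58.1) held neither form within 100 bp of the summit. Near *gtr-1* (pooled signal 50.5) 2 cores lay 23 bp before and 53 bp after the summit, and the peak ranked 10 in replicate 1 (40.2) and 93 in replicate 2 (13.4). Near F20B6.9 (37.9) a core and a variant core lay 29 and 55 bp after the summit, with ranks of 13 (37.2) and 57 (14.9). Both peaks stood high in either replicate. The other 3 peaks with a pair did so in 1 replicate only. One peak lay 4931 bp upstream of *xol-1*, a gene whose activity sets sex according to the number of X chromosomes, and had a pooled signal of 37.3. It ranked 18 in replicate 1 (31.9) and 3260 in replicate 2 (5.52). In Y41G9A.17 (pooled signal 35.8) the ranks were 11 in replicate 1 (38.5) and 3077 in replicate 2 (5.62). For *pks-1*, a polyketide synthase gene, the order was the opposite: the peak ranked 7683 in replicate 1 (9.27) and 10 in replicate 2 (22.9), with a pooled signal of 47.7.

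Other thresholded peaks had 1 core or a near match. At F19H6.5 (pooled signal 34.8) and T24D8.6 (27.55) the single core lay 93 bp before and 78 bp after the summit. The first ranked 15 in replicate 1 (34.8) and 2658 in replicate 2 (5.87), and the second ranked 20 in replicate 1 (27.9) with no overlapping peak in replicate 2. The variant core alone was found at K02D3.1, ZK899.6 and the F-box gene *fbxb-58*. K02D3.1 had the second highest pooled signal, 70.2, and ranked 1 in replicate 1 (56.9) and 12 in replicate 2 (22.5). For ZK899.6 (49.1) the ranks were 2 (52.2) and 7045 (4.2), and *fbxb-58* (31.2) ranked 12 in replicate 1 (38.1) with no overlapping replicate 2 peak. Both of these lay high in replicate 1 alone.

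The remaining 4 thresholded peaks held neither form within 100 bp, and 3 of these held the core with 1 mismatch. F22H10.2 (58.1) had an exact core 111 bp after the summit, outside the window, and ranked 8 in replicate 1 (44.7) and 17 in replicate 2 (19.7). F55G7.5 (55.4) and T27A8.7 (48.7) ranked 9 and 6 in replicate 1 (42.1 and 48.98) and 76 and 752 in replicate 2 (13.97 and 8.18). The fourth, in an intron of *ldb-1*, stood apart. This gene encodes the LIM domain-binding cofactor of LIM homeodomain proteins. Its peak (30.4) had no match with fewer than 2 mismatches, had no overlapping peak in replicate 1 and ranked 28 in replicate 2 (17.1). With up to 1 mismatch allowed, the core was found at 15 of the 16 thresholded peaks, or 93.8%, against 1746 of 68913 windows of X away from promoters, or 2.53%. Thresholded X promoter peaks had such a match at 2 of 4. Thresholded autosomal peaks had it at 1 of 7 away from promoters and at 2 of 20 at promoters. This looser match at the 16 was added after the data were seen, and it takes in the variant core.

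**Figure D2:**
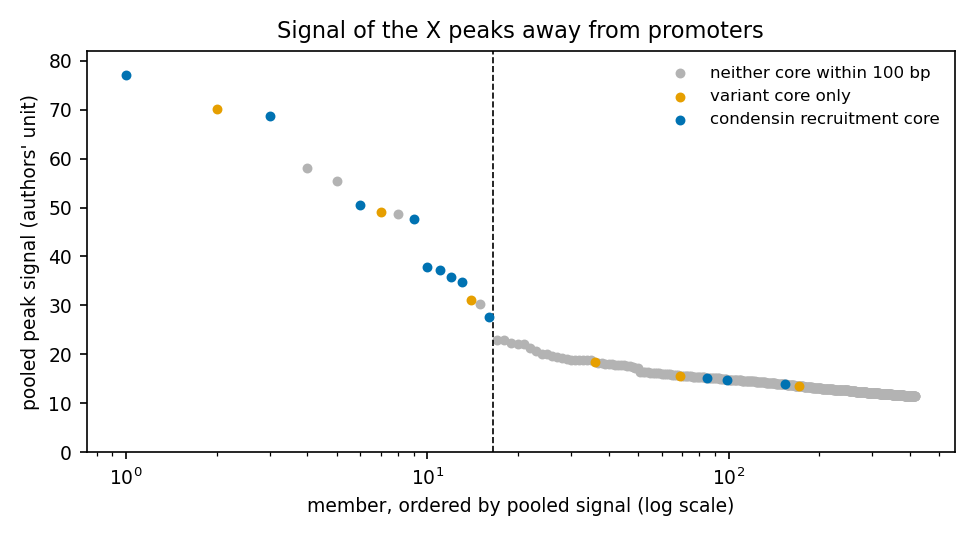
Pooled signal in the authors' unit (y axis) of the 417 X peaks away from promoters in order of signal (x axis, log scale). Blue points have the core within 100 bp of the summit, orange points the variant core alone, grey points neither; the dashed line divides the 16 thresholded peaks, from 27.55 to 77.1, from the other 401, which reach 22.98.

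Below the thresholded peaks the signal fell to a narrow range. Over all 417 the median was 12.97 with quartiles of 12.1 and 14.8, and the values of the 401 that were not thresholded ran from 11.5 to 22.98. The 3 weakest regions included had signals of 11.464, 11.462 and 11.459, and the 3 next X peaks away from promoters, just outside the 3000, had 11.458, 11.448 and 11.439. Membership at this edge therefore rests on very small differences. The 16 thresholded peaks were 3.84% of the 417, where 1.57% of all 3000 peaks were thresholded. Neither share is a result, since the threshold and the selection use the same signal.

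Below the thresholded peaks the core was rare at every rank. It was found at 0 of 62 peaks ranked from 48 to 500, at 3 of 135 ranked above 500 and up to 1500, or 2.22%, and at 0 of 204 ranked above 1500. The variant core was found at 2, 1 and 0 of them. With up to 1 mismatch the shares were 11.3%, 10.4% and 1.96%. In all, 12 of the 417 held the core, or 2.88% (1.5 to 4.97), beside 0.633% of all 3000 peaks, and 0 of 834 positions 1000 bp to either side of their summits held it. Outside the thresholded list the core lay near the collagen gene *col-185* (15.3), near F20B6.9 at a second peak (14.9) and at 1 gene without a symbol (13.9). The second peak at F20B6.9 lay 507 bp from the thresholded one.

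Among other strong peaks, cores were again found at thresholded peaks on X. Of the 4 thresholded X peaks at promoters 2 held the core, and of the 175 others 0 did. None of the 7 thresholded autosomal peaks away from promoters and none of the 20 at promoters held it, with upper bounds of the exact interval of 41% and 16.8%. The weaker autosomal peaks had it at 3 of 1585 and 2 of 792. No test of these differences was made, since the peaks come from 1 group. Seen from the sequence, X holds 81 cores, 4.57 per Mb, and the autosomes 233, 2.82 per Mb. Within 100 bp of a summit of the 3000 lay 18 of the 81 on X, 22.2%, and 5 of the 233 on autosomes, 2.15%. Away from promoters X had 64 cores, of which 16 lay by such a summit, 13 of them by 1 of the 47 strongest. No summit of a pooled peak of any rank lay within 100 bp of 44 of the 64. Pooled peaks are 280 bp wide, so a core farther from the summit can still lie inside one.

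**Figure D3:**
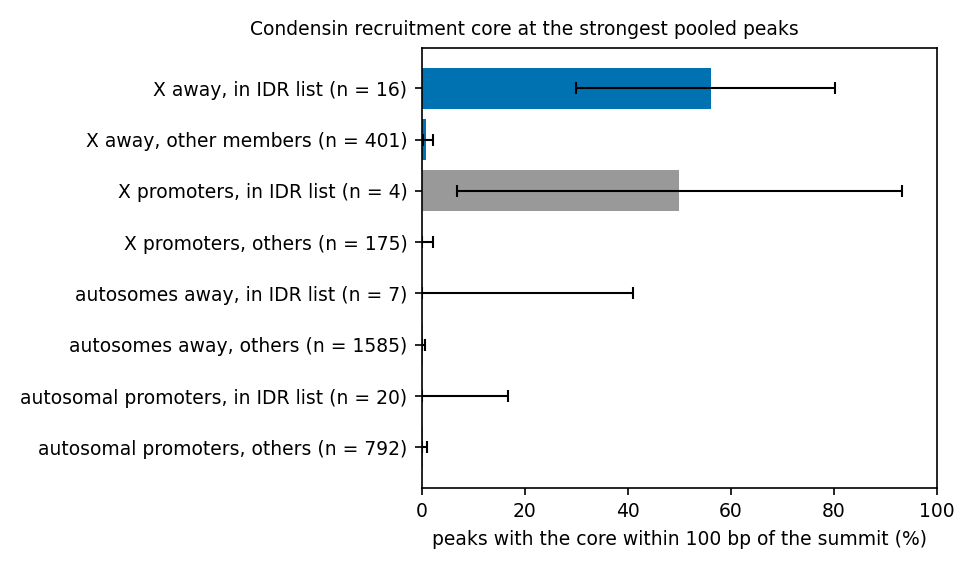
Share of peaks in percent with the core within 100 bp of the summit (x axis), by chromosome, place and presence in the IDR list (y axis), with exact 95% intervals. X peaks away from promoters are blue, with 56.2% of 16 thresholded peaks and 0.748% of 401 others; the 27 thresholded autosomal peaks show 0.

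The Myt1 family core AAGTT was somewhat less frequent at the pooled X peaks than around them, and its share moved with the replicate. The 7 bases AAAGTTT lay within 100 bp of 60 of 417 summits, 14.4%, against 17.3% of flanking positions and 17.3% of all X windows away from promoters. At the 16 thresholded peaks it was found at 0, against 12 of 32 flanking positions. The shorter AAGTT lay at 54% of the 417 (49 to 58.8), at 62% of flanks and at 61.2% of windows. In regions chosen by the same rule from replicate 1 alone, AAAGTTT lay at 20% and AAGTT at 64.7%, slightly above the shares of X windows. From replicate 2 alone the shares were 5.96% and 41.7%, below those of X windows. No intervals were computed for the shares of single replicates. Both searches read both strands, every AAAGTTT holds an AAGTT, and the shares depend on base composition. The other sequences searched were CGCAGGG, which the core contains, at 4.08% (flanks 0.839%, windows 0.318%), GAGAGAGA at 1.92% (0.719% and 0.971%) and CTGCGTCT at 0.719% (0.24% and 0.457%).

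Without a preset motif, the 6-base words that differed most between thresholded summits and their flanks were pieces of the same core. Counting either strand, CCTGCG and CCCTGC lay at 12 of 16 summits each and at 1 and 2 of 32 flanks. CCCTTC, part of the variant core, lay at 10 summits and 0 flanks. Among the other 401 peaks the leading word was ACATTG, at 82 summits, 20.4%, and 110 of 802 flanks, 13.7%, followed by CCTTTC at 12.7% and 5.99%.

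Base composition at the summits was slightly richer in G and C than nearby sequence. Within 100 bp the mean was 37.8% ± 6.9 (SD, n = 417 regions), against 35.6% ± 5.29 at their own flanks, and 249 of 417, or 59.7%, exceeded their flanks. Thresholded peaks had 40.9% ± 6.57 (SD, n = 16) against 34.0% ± 4.07, with 13 of 16 above their flanks. The mean decreased with rank, from 39.9% at ranks 48 to 500 through 38.5% to 36.4% at ranks above 1500, and all X windows away from promoters had 35.2%. The difference turned with the replicate: chosen by the same rule from replicate 1 alone, the mean of the regions minus that of their flanks was -0.93 percentage points, and from replicate 2 alone it was 9.28. Bases in lower case in the RefSeq genome, which mark repeats and low complexity, made up 22.1% at summits and 28.9% at flanks.

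**Figure D4:**
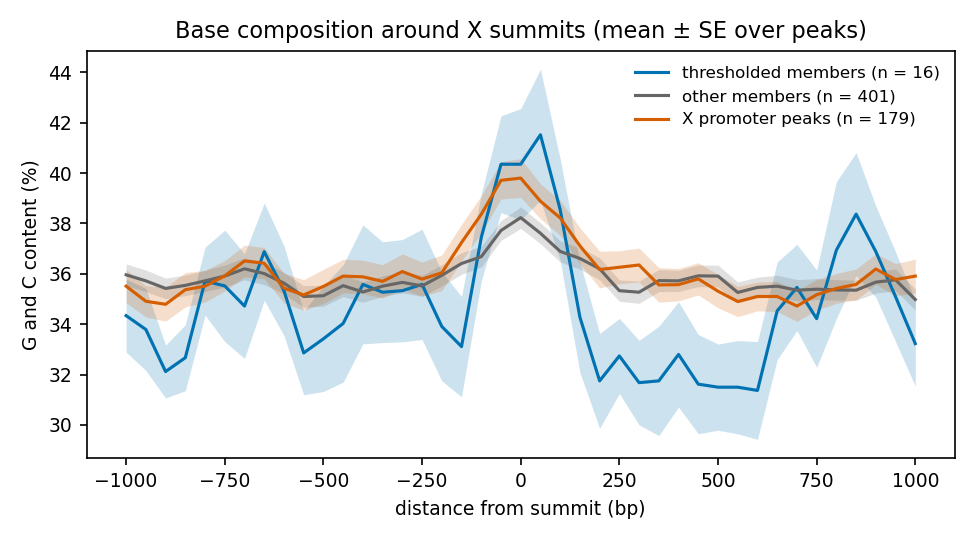
Mean G and C content in percent (y axis) of 101 bp windows at distances from the summit in bp (x axis) for thresholded X peaks away from promoters, the other 401, and X promoter peaks; shading is the SE over peaks. Thresholded peaks rise most, to a narrow maximum beside the summit, and the other 401 least.

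The replicates shared few of the 417. A peak among the 3000 strongest of replicate 1 overlapped 159, or 38.1%, beside 40.1% of all 3000 pooled peaks. For replicate 2 the count was 81, or 19.4%, beside 18% of all. The 3000 strongest of both overlapped 14, or 3.36%, beside 3.37% of all. These shares are near those of the whole list, so the X peaks away from promoters as a group were not set apart in this respect. Any relaxed peak of replicate 1 overlapped 354 (84.9%, beside 83.6% of all), any of replicate 2 overlapped 176 (42.2%, beside 45.1%), and 10 had none in either. In replicate 1 the −log10 q reached 0.629, so none of its peaks passes a q of 0.05, while every replicate 2 peak had at least 2.58. Results that rest on replicate 1 carry this limit. The pooled list that chose the regions has a similar one. There the −log10 q of the 417 ran from 0.305 to 2.12, so not all of them pass a q of 0.05.

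Of the 14 with a strong peak in both replicates, 9 were thresholded. Within the thresholded list, 7 of 16 ranked within 100 in both. In replicate 1, 14 of the 16 ranked within 20, and 5 of those 14 had no peak among the 3000 strongest of replicate 2. The 5 that were not thresholded lay in an intron of ZK563.2 (pooled signal 20.7), near *ets-5* (19.6), near *mboa-1* (18.9), near *pigx-1* (18.3) and in an exon of *pcdr-1* (14.8). None of the 5 held the core or the variant core. Of these, *ets-5* encodes an ETS transcription factor, and its peak and that of ZK563.2 lay within 300 bp of a transfer RNA gene. The best ranked in both was that near *mboa-1*, at 373 in replicate 1 (15.8) and 100 in replicate 2 (13.1), with a G and C content of 58.7%. These 5 were picked out by their values.

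**Figure D5:**
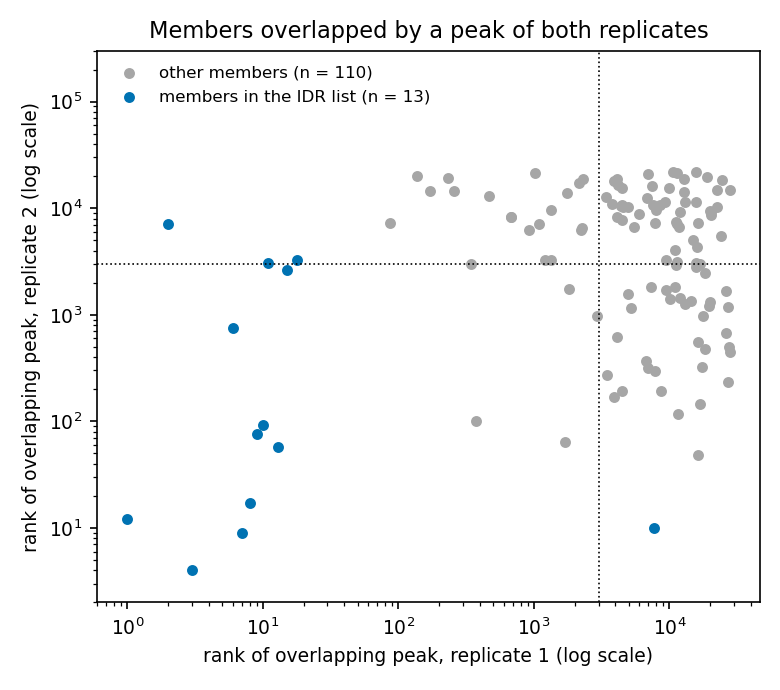
Rank of the strongest overlapping peak in replicate 1 (x axis) and in replicate 2 (y axis), both on log scales, for the 123 X peaks away from promoters overlapped in both. Dotted lines mark rank 3000. The 13 thresholded peaks (blue) lie mostly to the left, and most of the other 110 (grey) lie beyond rank 3000 in at least 1 replicate.

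Peaks that only 1 replicate ranked highly differed in sequence and place. The 145 with a peak among the 3000 strongest of replicate 1 alone had a G and C content of 35.0% ± 5.87 (SD), against 34.95% at flanks, and 72 of 145 exceeded their flanks. The 67 of replicate 2 alone had 44.4% ± 5.56, against 36.4%, and 59 of 67 exceeded them. Lower-case bases made up 28.9% and 10.9% of the sequence of these sets. Exons held 37 of the 145 and 24 of the 67. A word of the form GCGNAGGG, where N is any base, was found at 9 of 145, 6.21%, and at 4 of 67, 5.97%. These counts are too small to compare the sets, which hold 5 and 2 thresholded peaks. Among the 191 with no strong peak in either replicate, 1 held such a word.

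By place, 184 of the 417 summits lay between genes, 44.1% (exact 95% interval 39.3 to 49.0), 124 in exons, 29.7% (25.4 to 34.4), and 109 in introns, 26.1% (22 to 30.6). Of the bases of X away from promoters, 41.3% lie between genes, 25.6% in exons and 33.1% in introns. The pooled share in introns was lower than that of the sequence, and the other 2 shares were higher. Regions of 1 group are not replicates, so these differences were not tested. Place also moved with the replicate. Of the regions chosen by the same rule from replicate 1 alone, 48.4% lay between genes, 30.6% in introns and 21% in exons. From replicate 2 alone the shares were 30.8%, 18.4% and 50.9%. The split moved with rank: 12 of the 16 thresholded peaks (75%) and 59.7% of those ranked 48 to 500 lay between genes, then 35.6% and 42.6%. Of the 124 in exons, 101 were in coding sequence. Neighbouring genes converged around 6 of the 12 thresholded summits between genes and ran in tandem around the other 6. Around all 184 they converged at 33, 17.9%, where 12.8% of X sequence of this kind lies between convergent genes.

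The nearest 5′ end of a protein-coding transcript was 216 to 15209 bp away, with a median of 2070 bp, and 204 of 417 were within 2000 bp. It was upstream of the summit, so that the peak lay on the transcribed side, for 257. A promoter window began within 200 bp of 35 summits. Along X the regions were spread over every megabase, from 19 per Mb (10 to 11 Mb) to 32 per Mb (1 to 2 Mb) in full bins, while promoter peaks ran from 5 to 15. The gap between neighbours had a median of 28962 bp. Counting summits within 300 bp of each other once left 414.

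Genes for non-coding RNA lay within 300 bp of 65 summits, 15.6%, against 8.63% of X windows away from promoters. Transfer RNA genes, which RNA polymerase III transcribes, were beside 14, 3.36%, where 0.958% of X bases away from promoters lie so close to one. Of these 14, 7 ranked 48 to 500, 11.3% of that class, and 0 were thresholded. Their pooled signals ran from 11.6 to 22.2. A strong peak of replicate 1 overlapped 6 of the 14 and one of replicate 2 also 6. A small nucleolar RNA gene lay beside 1 summit, 0.24%, and the share of X sequence so close to one was not computed.

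Regions inside a gene were assigned to that gene and the rest to the gene with the closest 5′ end, which gave 350 genes, 12.8% of the 2727 protein-coding genes on X. Of these, 294 had 1 region, 47 had 2 and 9 had 3 or more. C30E1.4 had 4, all outside the gene, the strongest at 22.98 and 7594 bp downstream of its 5′ end. F54G2.1 also had 4, all within its 43102 bp (strongest 14.3). With 3 each followed F20B6.9, *ldb-1*, *lin-14*, *pqn-18*, *sma-9*, F57G12.1 and *fln-2*. Of these, *sma-9* encodes a Schnurri homologue of the body size pathway and *fln-2* a filamin; their strongest regions had 15.3 and 14.02. Long genes offer more sequence, and the counts were not adjusted for length.

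Among the 25 strongest, those not in the thresholded list lay between genes near C30E1.4 (22.98), ZC53.1 (22.9), *unc-7* (22.2), M02F4.2 (21.4) and *mfsd-10* (20.04), in exons of *lsy-2* (22.3) and *sulp-3* (22.2) and in introns of ZK563.2 (20.7) and *dyc-1* (20.1). The *lsy-2* gene encodes a zinc finger protein of left-right neuron identity, and *unc-7* an innexin of gap junctions. The replicates differed in these too: *lsy-2* ranked 27266 in replicate 1 (5.83) and 232 in replicate 2 (10.8), and *unc-7* 8650 (8.96) and 191 (11.2). The peak near C30E1.4 ranked 131 in replicate 1 (18.3) and had none in replicate 2. That near *mfsd-10* ranked 4470 (10.5) and 194 (11.1). Beside *sulp-3*, M02F4.2 and ZK563.2 lay transfer RNA genes. None of these 9 held the core or the variant core.

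Lists of X-linked genes, chosen with earlier results of these data known, were set beside the 12.8% of X genes with a region. Of 4 annotated genes that set or read the X signal of sex determination, only *xol-1* had one, and *sex-1*, *fox-1* and *ceh-39* had none. Of the timing genes of larval development, 5 of the 6 annotated as protein-coding had one: *lin-14* (17.9, 14.3 and 12.2), *hbl-1* (13.5), the nuclear receptor gene *daf-12* (12.1), *ain-1* of the microRNA pathway (13.1 and 11.6) and the Pumilio gene *puf-9* (13.5); *alg-1* had none. The *lin-14* regions lay in 2 introns and an exon of a gene of 20312 bp. The microRNA genes *let-7* and *mir-84*, placed by RefSeq, lay 4859 and 2267 bp from the nearest region (11.9 and 18.9). Of 17 annotated neuronal genes 4 had one: *unc-7* (22.2 and 13.8), *unc-18* (12.8), which acts in synaptic vesicle release, the potassium channel gene *unc-58* (14.6 and 14.6) and the Robo receptor gene *sax-3* (13.5). The symbols *sex-2* and *unc-20* were not matched. Except at *xol-1*, none of these regions was thresholded. The 12.8% takes no account of gene length, and longer genes such as *lin-14* offer more sequence. No list can therefore be set apart from the other X genes here. Regions with signals up to 12.91, as at *daf-12* and *unc-18*, ranked above 1500. Of these 204 regions, 0 had a peak among the 3000 strongest of both replicates.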

How the data were processed

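Per the labels, fragments of 150 to 350 bp from immunoprecipitated chromatin were sequenced for 2 biological replicates. The sources used here do not give the aligner, the peak caller or the scale of the signal. The deposited ce11 lists hold 30000 pooled, 29985 replicate 1 and 22869 replicate 2 relaxed peaks of fixed width (280, 390 and 196 bp), and 47 pooled peaks passing an irreproducible discovery rate threshold. Their signal is the authors' value per peak, and significance was deposited as −log10 q. The reads, the control libraries and the ce10 lists were not analysed here. Depth is therefore unknown, and no interval or lower limit from read counts is given.

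Peaks were placed with Ensembl release 115 protein-coding transcripts, on WBcel235, which has the coordinates of ce11. Overlap meant at least 1 shared bp. Sequence was read 100 bp to either side of the summit (201 bp) and at flanking positions 1000 bp away, on both strands, for 6 words and 2 added after the data were seen, and all X windows of 201 bp gave the background. Shares have exact 95% intervals. The division into thresholded and other peaks was also added after the data were seen. Named were genes of the 25 strongest regions, genes with 3 or more, genes of 3 lists (X signal, timing, neuronal) and regions at the edge. Members and lists were chosen with earlier results of these data known. With 1 group no test was made. Alternatives varied the number of peaks, the windows, the overlap, the bins and the replicate. Word and overlap searches were tested on simulated data. The software was Python 3.11.15 with scipy 1.17.1, pandas 2.3.3 and numpy 2.4.6, and figures were drawn by matplotlib 3.10.9.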

Additional observations from a re-analysis of the deposited data

How the results depend on the processing

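Taking the 1500 or 6000 strongest peaks gave 213 or 854 regions in place of 417. The shares with GCGCAGGG were then 5.63% and 1.41% (2.88% as reported) and with CGCAGGG 7.98% and 1.99% (4.08%), and the G and C difference was 3.28 points with 1500. Shorter or longer windows (50 or 250 bp to either side) moved AAAGTTT to 5.76% or 37.2%, AAGTT to 29.5% or 88.5%, and GAGAGAGA to 0.24% or 5.04%; CTGCGTCT reached 2.64% at 250 bp. These follow the number of peaks and the length read. Of the 16 strongest, 93.8% held the core with up to 1 mismatch, against 56.2% for an exact match. Both shares of the 16 were added after the data were seen. Promoter windows of 500 bp upstream and 100 bp downstream gave 489 regions, and windows of 2000 and 500 bp gave 320. With windows at the 5′ ends of all transcripts, not only protein-coding ones, 314 regions were left.

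Leaving out each replicate gave 30.8% to 48.4% between genes, 18.4% to 30.6% in introns and 21% to 50.9% in exons. The G and C difference, 2.22 points as reported, ran from -0.93 to 9.28, AAAGTTT from 5.96% to 20%, AAGTT from 41.7% to 64.7%, GAGAGAGA from 0.988% to 4.47% and CTGCGTCT from 0.741% to 3.47%. The cause was not tested. Overlap with replicate 1 was 84.9% for all its peaks, 66.2% for the 10000 strongest and 22.3% for the 1000 strongest, and with replicate 2 it was 42.2%, 29.7% and 11%, or 15.6% for summits within 100 bp. No paired analysis was possible because there is 1 group. Unknown depth limits every statement on absent peaks.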

Other observations

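Chosen by the same rule from each replicate alone, 405 and 403 X peaks away from promoters were found in replicates 1 and 2. Of these, 155 (38.3%) and 83 (20.6%) overlapped the pooled 417, and 16 of the 405 were overlapped by the 403. Of the 16 strongest peaks of replicate 1, 15 overlapped 14 thresholded regions, since a pair of them overlapped the same region in Y41G9A.17. Of the 16 strongest of replicate 2, 9 overlapped 9 thresholded regions. No list of known condensin recruitment elements was used here, so which of the 16 regions are such elements was not tested.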
